A study of Sus scrofa with 33 samples.

Results

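The genes described here are 10 antioxidant genes of the pig pituitary: NFE2L2, SOD1, SOD2, CAT, GPX1, GPX3, GPX4, TXNRD1, PRDX1 and HMOX1. A probe was taken as a member when the gene name, or the symbol in the description, that the array design gave it was one of these. The array held 57 such probes among 60305, and 55 of them were in the deposited expression table of 45667 probes. By gene these were 10 probes of CAT, 8 of SOD2, 6 each of GPX1, GPX3 and TXNRD1, 5 each of GPX4 and SOD1, 4 of HMOX1, 3 of NFE2L2 and 2 of PRDX1. The other 2, SOD2 O14696 and TXNRD1 A_72_P177956, were well above background on 1 and 2 of the 33 arrays and have no value here. All 55 probes of the table were well above background on every array, except HMOX1 A_72_P622079, which was so on 32.

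The pigs were castrated growing males of Large White (LW) and Creole (CR) origin and of their F1 cross, raised in Guadeloupe. Thermoneutral (TN) pigs were slaughtered at a labelled 24 °C, and heat-stressed (HS) pigs after up to 5 days of heat, labelled 30 °C and given as 32 °C in the protocol text. Each array held the RNA of a single pig, with 5 LW TN, 6 LW HS, 5 CR TN, 6 CR HS, 6 F1 TN and 5 F1 HS arrays. TN pigs were killed before the rise in temperature and HS pigs after it, so temperature cannot be told apart from slaughter day and age. Per the methods of the study, the pigs of a breed came from 3 sets of littermates, which the labels do not name, so arrays of a breed are not all unrelated animals. The breed field of LW HS 3 named Creole while its title named Large White, and the title was followed.

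Superoxide is turned into hydrogen peroxide by superoxide dismutases, and hydrogen peroxide is then broken down by catalase, by the selenium-containing glutathione peroxidases and by peroxiredoxins. Peroxiredoxins are recharged by thioredoxin, which is itself reduced by the selenoenzyme thioredoxin reductase. Many genes of these systems are targets of NRF2, the transcription factor encoded by NFE2L2, which is freed from its inhibitor KEAP1 when cells are oxidised or meet electrophiles. Hormone-secreting cells of the pituitary fold large amounts of disulfide-bonded protein, a process that itself releases peroxide.

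All values are log2 of quantile-normalised intensity, and a level of one probe is not comparable with that of another. Between 73.5% and 82.2% of the spots of an array were well above background, and 0 were saturated. The arrays were spread over 5 slides of 3 to 8 arrays. LW TN 2 and CR TN 1 stood farthest from the mean of their own group over all probes, at a root mean square distance of 0.34 and 0.32 log2 units against a median of 0.22. F1 HS 5 was at 0.29, LW HS 4 and F1 HS 3 at 0.28 and F1 HS 2 at 0.26. F1 HS 2 and F1 HS 5 were singled out not by this distance but as the lowest arrays on GPX4. The results that turned on LW TN 2 and CR TN 1, or on F1 HS 2 and F1 HS 5, are given with and without them. The 7 pituitary hormone genes were well above background on every array, and their summed level lay between 20.96 and 21.27. The posterior-lobe hormone genes AVP and OXT were also present on every array, with a summed level of 17.30 to 17.63, although the methods name the anterior lobe. Since whole tissue was used, fewer cells of a type and less RNA per cell cannot be told apart.

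To find whether heat moved the antioxidant genes, HS was compared with TN over all breeds with limma. None of the 10 genes passed an adjusted p of 0.05: 0 of 55 probes were called, against 0.0219% (10) of all probes, 0.00438% higher and 0.0175% lower in HS. Before adjustment, 3 member probes (5.45% of 55) had a p under 0.05, against 8.77% of all probes. The median difference of the members was -0.03, and that of all probes 0.01. The 55 differences ran from -0.26 to 0.09, and 35 of them were below 0, a sign held by 45.3% of all probes. The probes of a gene mostly shared a sign: all 6 of GPX1, all 4 of HMOX1, both of PRDX1 and 9 of 10 of CAT were lower in HS, whereas all 6 of GPX3 and all 5 of SOD1 were higher. These shared signs rested on few arrays. Without LW TN 2 and CR TN 1, 1 of 6 GPX3 probes and 2 of 5 SOD1 probes were higher, and 1 of 2 PRDX1 probes was lower. Leaving out F1 HS 2 and F1 HS 5 gave 4 of 6 GPX1 probes and 2 of 4 HMOX1 probes lower. The response to heat was also compared between breeds. The interaction of breed and temperature called 0 of 55 member probes and 0% of all probes, with 5 members (and 4.25% of all probes) under an unadjusted 0.05. HS against TN within LW, within CR and within F1 likewise called 0 members and 0% of all probes each, with 3, 3 and 5 members under an unadjusted 0.05. Over all probes the shares under that p were 6.8%, 5.85% and 5.68%. Below 0 were 38 members within LW, 17 within CR and 42 within F1, against 47.9%, 48.1% and 47.1% of all probes.

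**Figure D1:**
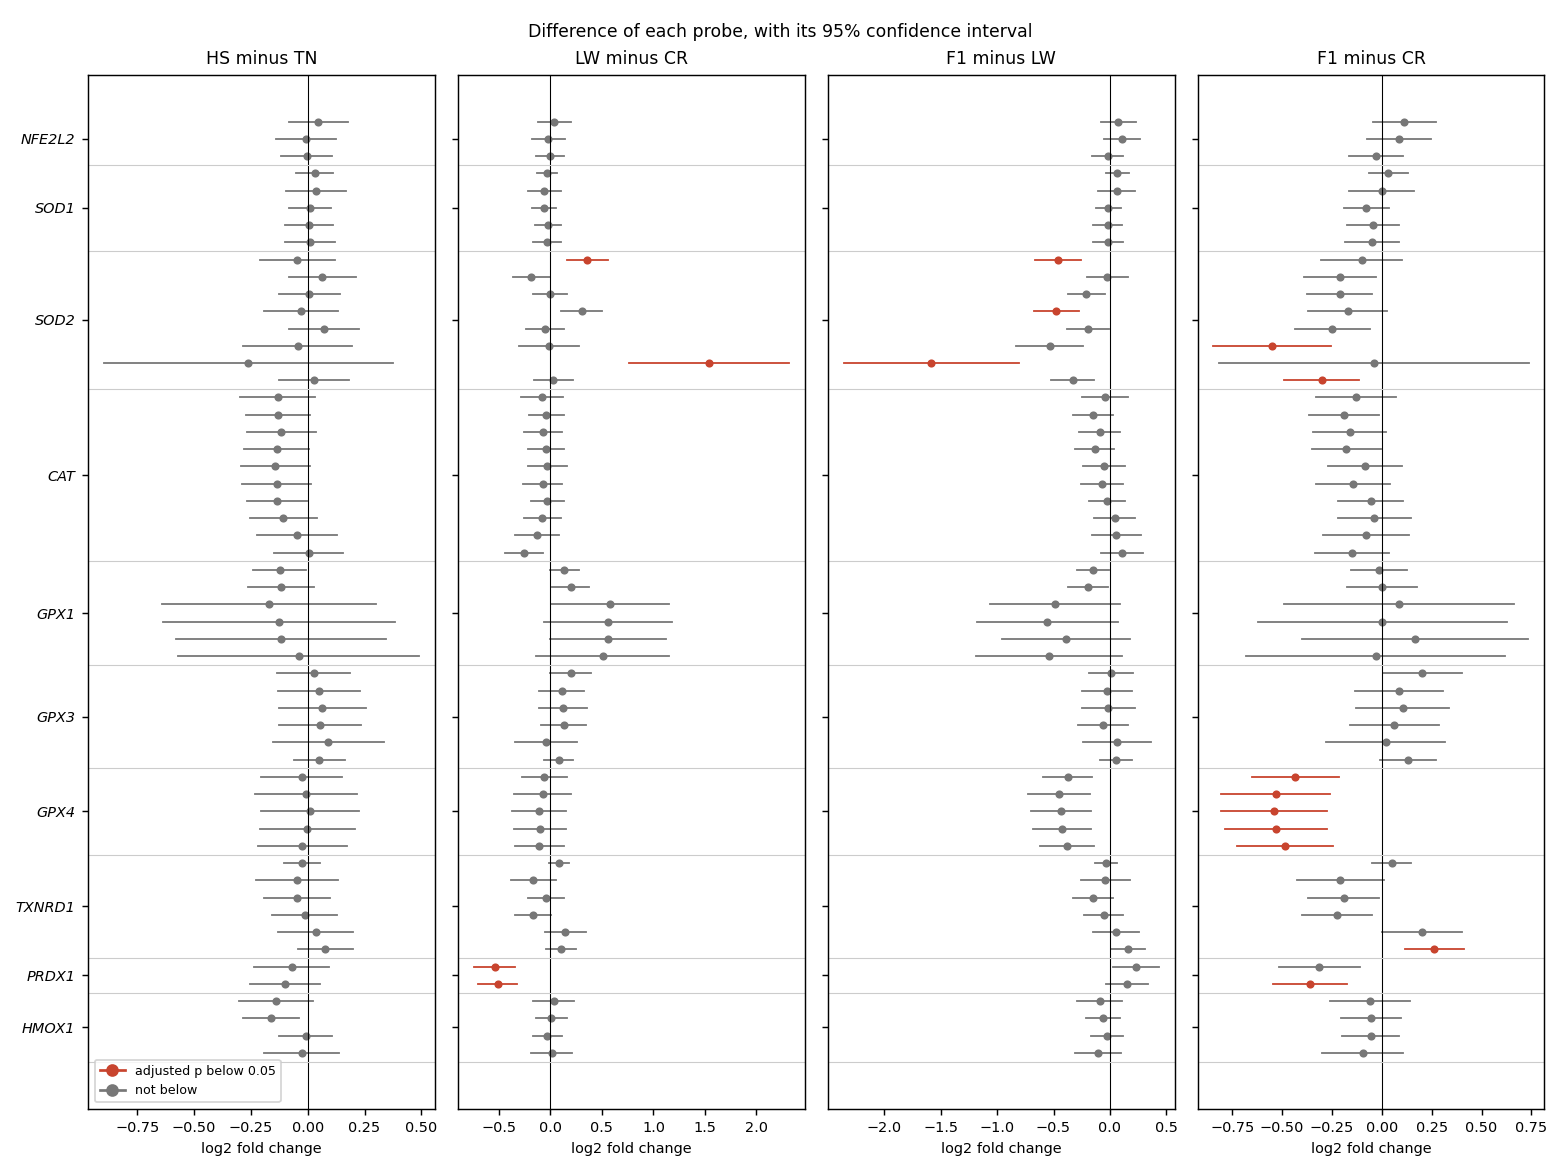
Log2 fold change of each of the 55 member probes (points) with its 95% confidence interval (lines), grouped by gene, for HS minus TN and for the 3 breed comparisons, with red for an adjusted p below 0.05. No interval is red for HS minus TN, while 4, 3 and 9 are red in the breed comparisons, those of GPX4 all on the same side in F1 minus CR.

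The calls among the members came from the comparisons between breeds. LW against CR called 4 of 55 probes (7.27%, against 6.65% of all probes), in PRDX1 and SOD2, of which 2 were higher and 2 lower in LW (3.61% and 3.05% of all probes). F1 against LW called 3 probes, all of SOD2 and all lower in F1 (5.45%, against 1.48% of all probes in either direction and 0.926% lower; 0.55% were higher). F1 against CR called 9 probes in 4 genes (16.4%, against 6.86% of all probes), 8 lower and 1 higher in F1. In that comparison 3.39% of all probes were lower and 3.48% higher. Under an unadjusted 0.05 were 9, 16 and 18 members in the same order, against 18.7%, 13.9% and 21.8% of all probes. Below 0 were 33, 41 and 39 of 55 members, against 50.4%, 45% and 46.4% of all probes. Read against the background, the members' share was near the background in LW against CR and above it in both comparisons with F1. The counts with F1 changed with the arrays kept. With F1 HS 2 and F1 HS 5 left out, F1 against LW called 0 members (0.523% of all probes) and F1 against CR 4 (3.95% of all probes). Those arrays were picked as the lowest on GPX4, so leaving them out by itself weakens lower values in F1. The loss therefore cannot show how few arrays carried the calls. Leaving out a single array gave 2 to 10 calls in F1 against LW, with 10 without F1 HS 3 and 9 without F1 TN 1. Those 12 calls came from few genes with several probes each, and the 3 comparisons share their arrays. In each of these calls the groups overlapped.

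**Figure D2:**
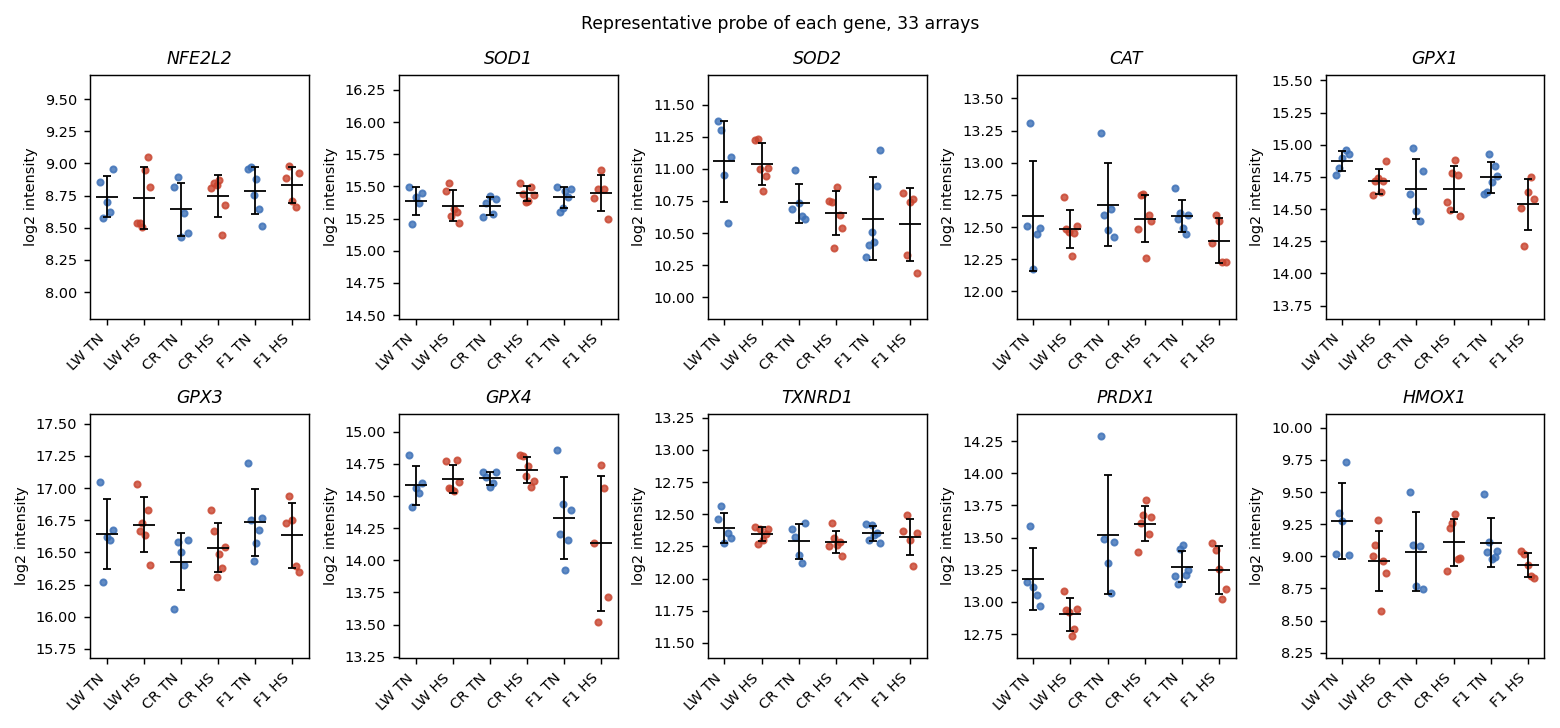
Log2 intensity of the brightest probe of each of the 10 genes on 33 arrays, 1 point per pig, by breed and temperature, with the mean and SD of each group. TN and HS points overlap in every gene, PRDX1 lies higher in CR than in LW, and GPX4 spreads widest in F1.

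NFE2L2 encodes NRF2 itself. Its brightest probe, O8761, lay between 8.43 and 8.98 in TN pigs (median 8.73, n = 16) and between 8.45 and 9.05 in HS pigs (median 8.82, n = 17). The groups covered the same range, and the difference was 0.05 (adjusted p = 0.868). Its other 2 probes differed by -0.01 and -0.00. By breed the O8761 means were 8.74 in LW, 8.70 in CR and 8.81 in F1, with SDs of 0.16 to 0.20 (n = 11 each), so no neighbours in that order were separated beyond their spread. No NFE2L2 probe was called in any comparison. The 3 probes followed each other weakly, with r of 0.18 to 0.64 after removal of the group means.

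SOD1 is the copper-zinc superoxide dismutase of the cytosol. Probe A_72_P721668 had the narrowest range of the 10 brightest probes, 0.42 log2 units from 15.21 to 15.63. TN pigs lay between 15.21 and 15.49 (median 15.41) and HS pigs between 15.21 and 15.63 (median 15.43). The difference of 0.03 had an interval of -0.05 to 0.11 (adjusted p = 0.856), with 11 of 17 HS pigs above the TN mean of their own breed. Its breed means were 15.37 in LW, 15.40 in CR and 15.43 in F1, all within 1 SD (0.08 to 0.11) of each other. None of the 5 SOD1 probes was called in any comparison.

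SOD2 is the manganese superoxide dismutase of mitochondria, and its 8 probes did not give a single picture. The stretches below are shown because they are where the probes differ. Each is part of a 60-base probe of the array design, written 5′ to 3′. In the first pair, capitals mark bases that have no identical partner in the other probe, and the pair matched at 51 bases in all with 1 substitution and 1 inserted or deleted base. In A_72_P444413 the capitals mark AATAAA, the canonical polyadenylation signal, searched on the probe strand and held by 11.2% of the 45667 probes and by 4 of the 55 member probes.
SOD2 A_72_P341278, bases 31 to 60: taaggtcctgGagaGctttcattTAATTAT
SOD2 A_72_P669424, bases 39 to 60: taaggtcctgTagactttcatt
SOD2 A_72_P444413, bases 31 to 60: tgtagagagaaAATAAAgactcttgtgaaa

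SOD2 A_72_P444413 had the widest range of all member probes, 3.60 log2 units, and its values came in 3 runs with empty stretches between them. The 6 lowest arrays lay between 6.31 and 6.66, 11 lay between 7.42 and 7.96, and 16 lay between 8.84 and 9.92. Of the 11 LW pigs, 10 were in the highest run and LW TN 4, at 7.42, was in the middle run. The CR pigs were 3 in the lowest, 5 in the middle and 3 in the highest run, and so were the F1 pigs. Both temperatures were present in all 3 runs. The lowest run held only arrays of slides 1 and 2: CR HS 1 on slide 1, and CR TN 1, CR HS 2, F1 TN 1, F1 HS 2 and F1 HS 3 on slide 2. On those slides LW TN 1, LW TN 2, LW HS 1 and F1 HS 1 were in the highest run. A limma F-test of slide beside the 6 groups gave this probe an adjusted p of 0.216. By breed the lowest, median and highest values were 7.42, 9.27 and 9.92 in LW, 6.36, 7.65 and 9.22 in CR, and 6.31, 7.53 and 9.42 in F1. The probe was thus high in nearly all LW pigs and spread over the whole range in the others. It was 1.54 higher in LW than in CR (SE 0.38, adjusted p = 0.00954) and 1.58 lower in F1 than in LW (interval -2.36 to -0.81, adjusted p = 0.0289), with these signs on 5 of 5 slides. F1 and CR differed by -0.04 (interval -0.82 to 0.74). Leaving out arrays of F1 ended the call against LW in several cases. Without F1 HS 2, F1 TN 2 or F1 TN 4, the difference between F1 and LW was -1.44, -1.55 or -1.55, with an adjusted p of 0.0656, 0.0509 or 0.051. Probe O14696, which has no value here, was designed on the opposite strand of bases 30 to 60 of A_72_P444413 and matched at 30 of these 31 bases, with the substitution C52T counted from the 5′ end of A_72_P444413.

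**Figure D3:**
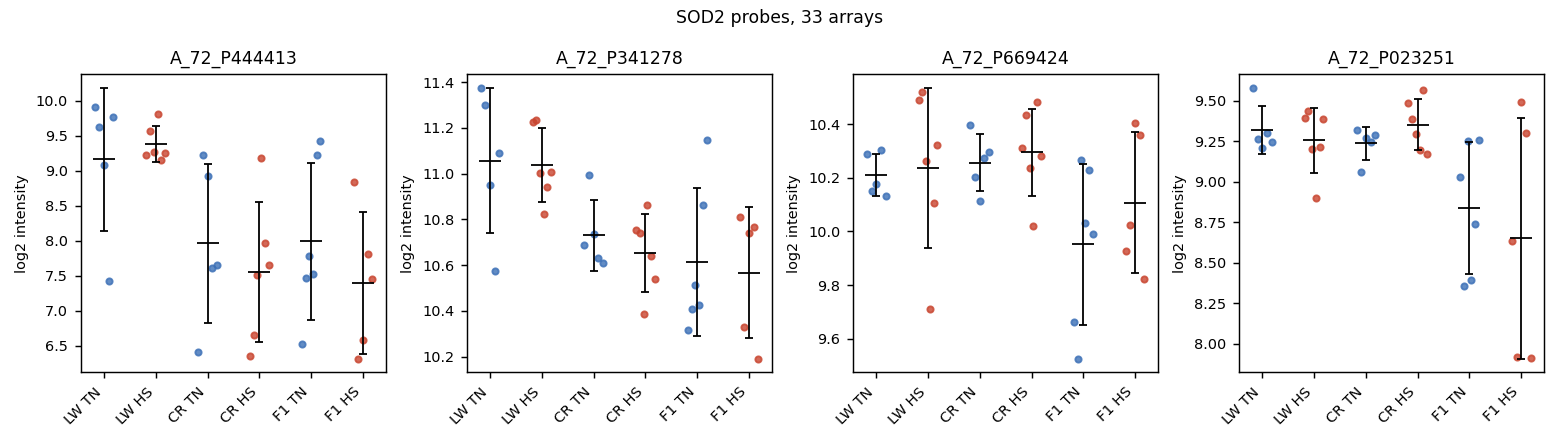
Log2 intensity of 4 SOD2 probes on 33 arrays, 1 point per pig, with the mean and SD of each breed-by-temperature group. A_72_P444413 splits into separate levels, A_72_P341278 is highest in LW, A_72_P669424 shows no such order although it shares 51 bases with the former, and A_72_P023251 falls to 7.91 in F1.

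The brightest SOD2 probe, A_72_P341278, has the same 60 bases as A_72_P503136, and these copies followed each other with r = 0.965 (rho = 0.969, permutation p = 1e-05, the smallest that 100000 permutations can give, adjusted p = 3.5e-05, r = 0.932 to 0.991 within slides). A_72_P341278 lay between 10.58 and 11.37 in LW (median 11.01), between 10.39 and 10.99 in CR (median 10.69) and between 10.19 and 11.15 in F1 (median 10.51). LW pigs were thus the highest. It was 0.36 higher in LW than in CR (SE 0.10, adjusted p = 0.0211) and 0.46 lower in F1 than in LW (adjusted p = 0.0138). The copy gave 0.30 (adjusted p = 0.0543, not called) in the first comparison and -0.47 (adjusted p = 0.00953) in the second. With slide as a fixed or a random block the first was 0.32 or 0.31 and was called (adjusted p = 0.0382 or 0.0371). With LW HS 3 taken as Creole, as its breed field says, the LW and CR difference of A_72_P341278 was 0.33 with an adjusted p of 0.0568.

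The overlapping A_72_P669424 behaved differently. Its breed means were 10.22 in LW, 10.28 in CR and 10.02 in F1, and its difference between LW and CR was -0.05 (adjusted p = 0.846). It followed A_72_P341278 with r = 0.361 (rho = 0.331, permutation p = 0.039 and 0.062, adjusted 0.073 and 0.11), and r ranged from -0.246 to 0.705 within slides. In F1 against CR the called SOD2 probes were others. A_72_P023251 was 8.75 ± 0.56 (SD, n = 11) in F1 against 9.30 ± 0.14 in CR, lower by 0.55 (SE 0.14, adjusted p = 0.018) and lower on 5 of 5 slides. A_72_P655932 was lower by 0.30 (adjusted p = 0.0411), a call that was lost on leaving out any of 14 of the 33 arrays. Without F1 HS 2 and F1 HS 5, a choice made after seeing the data, these differences were -0.34 and -0.20, with adjusted p of 0.093 and 0.197. Without LW TN 2 and CR TN 1 that of A_72_P655932 was -0.29 (adjusted p = 0.0659). Without F1 HS 2 and F1 HS 5, F1 minus LW was -0.38 on A_72_P341278 (adjusted p = 0.0731) and -1.40 on A_72_P444413 (adjusted p = 0.111). All 8 SOD2 probes were lower in F1 than in LW, by 0.02 to 1.58, and lower than in CR, by 0.04 to 0.55. Markers of other cell types also differed in F1. Against LW, 4 of 5 endothelial genes (median -0.35, 2 called lower), 8 of 9 macrophage genes (median -0.26, 1 called lower) and 2 of 6 fibroblast genes (median 0.06, 0 called, 0 at an unadjusted p under 0.05 with limma) were lower in F1. Against CR, 4 of 5 endothelial genes (median -0.06, 1 called lower and 1 higher), 6 of 9 macrophage genes (median -0.09, 1 called lower) and 6 of 6 fibroblast genes (median -0.44, 3 called lower) were lower. In LW against CR, 3 of 5 endothelial genes (median 0.19, 2 called higher) and 6 of 9 macrophage genes (median 0.15, 1 called higher) were higher. So were 2 of 2 intermediate-lobe genes (median 0.49, 0 called) and 1 of 6 fibroblast genes (median -0.59, 4 called lower). The summed endothelial level was 12.56 to 13.69 in LW TN, 12.30 to 12.79 in LW HS, 12.37 to 13.41 in CR TN, 12.19 to 12.49 in CR HS, 12.27 to 12.89 in F1 TN and 12.04 to 12.64 in F1 HS, with all 5 genes well above background on every array. Their part in the SOD2 and GPX4 values was not tested. Heat moved no SOD2 probe past the threshold, and A_72_P341278 differed by -0.05 (interval -0.21 to 0.12).

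CAT encodes catalase, which splits hydrogen peroxide in peroxisomes. Its brightest probe, A_72_P632481, lay between 12.17 and 13.31 in TN pigs (median 12.53) and between 12.23 and 12.75 in HS pigs (median 12.49). The TN range was set by LW TN 2 at 13.31 and CR TN 1 at 13.23, since the other 14 TN pigs reached at most 12.80. HS minus TN was -0.13 (interval -0.30 to 0.03, adjusted p = 0.675), with 13 of 17 HS pigs below the mean of TN pigs of the same breed. The 9 CAT probes that were lower in HS gave -0.14 to -0.05, and A_72_P686566 gave 0.00. Without LW TN 2 and CR TN 1, A_72_P632481 differed by -0.03. All 10 probes were lower in LW than in CR (-0.26 to -0.03) and lower in F1 than in CR (-0.19 to -0.04), with a smallest adjusted p of 0.0878, so none was called. CAT was also the member most linked with the slide: 6 of its 10 probes differed between slides, among 10 of 55 member probes (18.2%) and 13.2% of all probes.

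Those same arrays stood apart in cell type markers. The summed level of the 6 fibroblast genes was 15.14 on LW TN 2 and 15.42 on CR TN 1, the highest of their groups, which otherwise reached 14.53 and 15.22. Their summed hormone levels, 20.96 and 21.01, were the lowest of the 33 arrays. Over all breeds 6 of 6 fibroblast genes (median -0.28), 9 of 9 macrophage genes (median -0.19) and 5 of 5 endothelial genes (median -0.21) were lower in HS, with 0 called. With LW TN 2 and CR TN 1 left out, the summed endothelial level in HS minus TN went from -0.28 to -0.06 in LW and from -0.36 to -0.19 in CR. That of the fibroblast genes went from -0.42 to -0.24 in LW and from -0.43 to -0.33 in CR, and that of the macrophage genes from -0.35 to -0.27 in LW and from -0.07 to 0.04 in CR. Of 10 erythroid genes 8 were lower, and HBB, a haemoglobin chain, was called at -1.15 (adjusted p = 0.0301). The summed erythroid level in HS minus TN, with those arrays left out, went from -0.19 to -0.09 in LW and from -0.24 to -0.08 in CR. The part of these cell types in the members' values was not tested.

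GPX1 is the abundant cytosolic glutathione peroxidase, a selenoprotein. Its probes fell into a pair and a set of 4. Bases shared by the end of a probe of the pair and the start of a probe of the set are in capitals below, to show how closely they adjoin.
GPX1 A_72_P623069, bases 31 to 60: gttacagtgctactctCGGGATTTTATCCA
GPX1 A_72_P088441, bases 1 to 30: CGGGATTTTATCCAtgaaagtgtttcctct

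The brightest probe, A_72_P623069, lay between 14.41 and 14.98 in TN pigs (median 14.78) and between 14.22 and 14.88 in HS pigs (median 14.64). The groups overlapped almost entirely, and HS was lower by 0.12 (interval -0.24 to -0.01, adjusted p = 0.53), with 12 of 17 HS pigs below the TN mean of their breed. Its whole range was 0.76 log2 units. A_72_P088441, which starts in the last 14 bases of that probe, ranged over 2.93 units from 9.70 to 12.63. On that probe CR TN 4 and CR HS 6 were at 9.70 and 9.76, and all others were at 10.73 or above. The same CR pigs were also the lowest on A_72_P689751 (9.45 and 9.54, others from 10.37), on A_72_P684140 (8.60 and 8.63, others from 9.48) and on A_72_P564112 (7.34 and 7.74, others from 8.37). The 4 probes of the set thus had the same lowest pigs. On A_72_P623069 these were at 14.41 and 14.45, with F1 HS 2 below them at 14.22. A_72_P088441 and A_72_P689751 followed each other with r = 0.989 (rho = 0.975), whereas A_72_P623069 and A_72_P088441 gave r = 0.676 (rho = 0.573), each with a permutation p for r of 1e-05 (adjusted 3.5e-05). All 6 probes were higher in LW than in CR, by 0.13 to 0.58, and lower in F1 than in LW, by 0.15 to 0.56, but the smallest adjusted p were 0.203 and 0.292.

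GPX3 is the glutathione peroxidase that cells secrete. Probe A_72_P666610 lay between 16.06 and 17.19 in TN pigs (median 16.60) and between 16.31 and 17.04 in HS pigs (median 16.67). HS minus TN was 0.03 (adjusted p = 0.95), and -0.04 without LW TN 2 and CR TN 1, so it had no stable sign. The breed means were 16.69 in F1, 16.68 in LW and 16.49 in CR, with SDs of 0.20 to 0.25. CR lay lowest, by 0.20 against each of the others, at adjusted p of 0.211 for F1 and 0.269 for LW. On A_72_P036051 and A_72_P440086, 6 of 6 LW and 6 of 6 CR pigs in heat were above the TN mean of their breed and 5 of 5 F1 pigs below it. For A_72_P440086 this gave 0.24 in LW, 0.22 in CR and -0.26 in F1, with an interaction p of 0.0463 (adjusted 0.926). With LW TN 2 and CR TN 1 left out it was 0.03 in LW (3 of 6 HS pigs above the TN mean), 0.07 in CR (5 of 6 above) and -0.26 in F1, so that the values of the purebreds rested on those arrays. These probes share 56 of 58 overlapping bases and count as repeats of a single measurement.

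GPX4 reduces lipid peroxides inside membranes and is the enzyme that holds back ferroptosis. Its 5 probes agreed more closely than those of any other member, with r of 0.957 to 0.986 for the 10 pairs after removal of the group means. The sequences below show how many separate stretches they cover. The first is carried by both A_72_P646221 and A_72_P232212, and in the others capitals mark the single base that each has and the other lacks, the rest being shared.
GPX4 A_72_P646221: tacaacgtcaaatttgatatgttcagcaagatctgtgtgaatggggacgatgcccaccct
GPX4 O12144: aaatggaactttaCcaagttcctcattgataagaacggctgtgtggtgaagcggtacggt
GPX4 A_72_P589411: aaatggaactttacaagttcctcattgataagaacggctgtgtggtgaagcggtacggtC

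On the brightest probe, A_72_P388853, the F1 TN pigs were at 14.86, 14.21, 14.44, 13.92, 14.16 and 14.39, and the F1 HS pigs at 14.13, 13.52, 14.74, 14.56 and 13.71. LW pigs lay between 14.41 and 14.82 (median 14.56) and CR pigs between 14.57 and 14.82 (median 14.66). F1 pigs were thus widely spread, from above the highest CR pig to below every purebred pig, while the purebreds were tight. The SD was 0.41 in F1, 0.12 in LW and 0.08 in CR. GPX4 was lower by 0.43 in F1 than in CR (SE 0.11, interval -0.65 to -0.22, adjusted p = 0.012). The other 4 probes gave -0.54 to -0.49 (adjusted p = 0.00921 to 0.0143), and all 5 were lower on 5 of 5 slides. Against LW, F1 was lower by 0.37 to 0.45 on the 5 probes, with an adjusted p of 0.0669 to 0.0967, so that none was called. All 5 were called without F1 TN 1, without F1 HS 3 or with array weights, where A_72_P388853 gave -0.43, -0.43 and -0.35 (adjusted p = 0.0189, 0.0211 and 0.014). It gave -0.22 without F1 HS 2 and F1 HS 5 (adjusted p = 0.297). LW and CR differed by -0.11 to -0.06 (adjusted p = 0.721 at the least). Without F1 HS 2 and F1 HS 5, the F1 and CR difference of A_72_P388853 was -0.28 (adjusted p = 0.0572), and 3 of the 5 probes were still called. Heat left GPX4 without a stable sign: HS minus TN was -0.03 (interval -0.21 to 0.15, adjusted p = 0.955), 0.03 with array weights and 0.05 with the processed signal. It was 0.08 without F1 HS 2 and F1 HS 5. As these were picked as the lowest arrays on GPX4, leaving them out by itself weakens the F1 differences and raises HS minus TN.

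**Figure D4:**
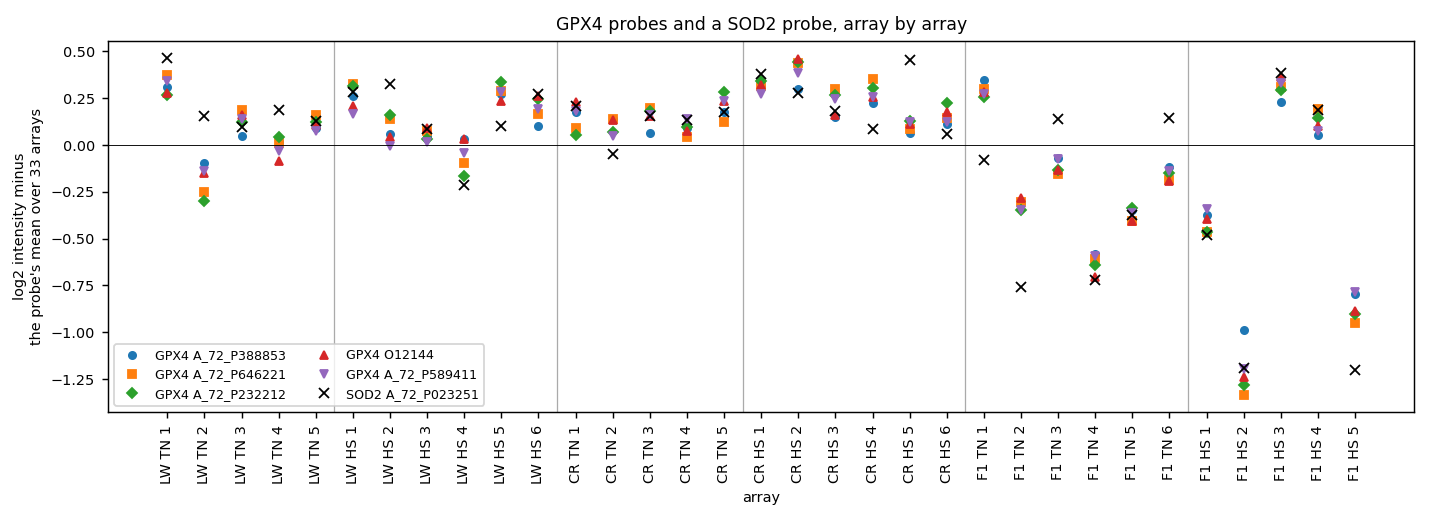
Log2 intensity of the 5 GPX4 probes and of SOD2 A_72_P023251 on each array, less the mean of the probe over 33 arrays, with vertical lines between breed-by-temperature groups. The 5 GPX4 probes move together, F1 HS 2 and F1 HS 5 lie lowest, and the SOD2 probe is low on the same F1 arrays, while F1 TN 1 and F1 HS 3 lie with the purebreds or above them.

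The low GPX4 values of F1 pigs went with low values of SOD2 A_72_P023251, a probe with which they share no sequence. With the group means removed, A_72_P388853 and A_72_P023251 correlated at r = 0.831 (rho = 0.698, permutation p = 1e-05 and 2e-05, adjusted 3.5e-05 and 7.7e-05, n = 33). The permutation treats all arrays as exchangeable, whereas both probes spread far more in F1 than in CR. Its p may therefore be too small. A_72_P023251 was the called SOD2 probe with the largest difference in F1 against CR. The brightest SOD2 probe, A_72_P341278, correlated with A_72_P388853 at r = 0.322 (rho = 0.330, permutation p = 0.067 and 0.059, adjusted 0.12 and 0.11), and A_72_P444413 at r = -0.089. Outside the members, NUP133, TLK1 and DLG3 ran closer with A_72_P388853 than any SOD2 probe tested, at r = 0.906, 0.906 and 0.901. For A_72_P023251 r was 0.731 without the 2 arrays farthest from the median and 0.734 to 0.919 within the 4 slides of 6 or more arrays. RNA breakdown was followed by the median level of probes near the 3′ end less that near the 5′ end of the same transcript. This measure was -0.04 on both F1 HS 2 and F1 HS 5, and ran from -0.07 to 0.08 over all arrays. The F1 TN arrays lay between 0.005 and 0.045, above both. F1 HS 1, F1 HS 3 and F1 HS 4 were at -0.06, -0.07 and 0.01. The part of RNA breakdown in the GPX4 and SOD2 values was not tested.

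TXNRD1 is the cytosolic thioredoxin reductase, a selenoprotein at the head of the thioredoxin chain. Its brightest probe, A_72_P009866, was among the steadiest of the members, with 12.12 to 12.56 in TN pigs (median 12.35) and 12.10 to 12.49 in HS pigs (median 12.31). Its difference with heat was -0.03 (adjusted p = 0.878), and its breed means were 12.37 in LW, 12.34 in F1 and 12.29 in CR, within an SD of 0.09 to 0.10. The other 5 probes divided into groups that ran against each other. A_72_P163096 and A_72_P517550 followed each other with r = 0.966 (rho = 0.960), and A_72_P455657 and O14115 with r = 0.783 (rho = 0.815). A_72_P499028, which shares 57 bases with A_72_P163096, and A_72_P455657 moved in opposite directions, with r = -0.650 (rho = -0.517, permutation p = 9e-05 and 0.0024, adjusted 0.00025 and 0.0058), -0.529 without the 2 farthest arrays and -0.915 to -0.641 within slides. The sequence of the latter is shown because it correlated negatively with 3 of the other 5 probes, with r of -0.650 to -0.533. For O14115 and the same 3 probes r was -0.340 to -0.312, with adjusted permutation p for r of 0.096 to 0.13. It is given whole, with no part marked.
TXNRD1 A_72_P455657: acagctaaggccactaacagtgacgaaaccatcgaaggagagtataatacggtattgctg

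**Figure D5:**
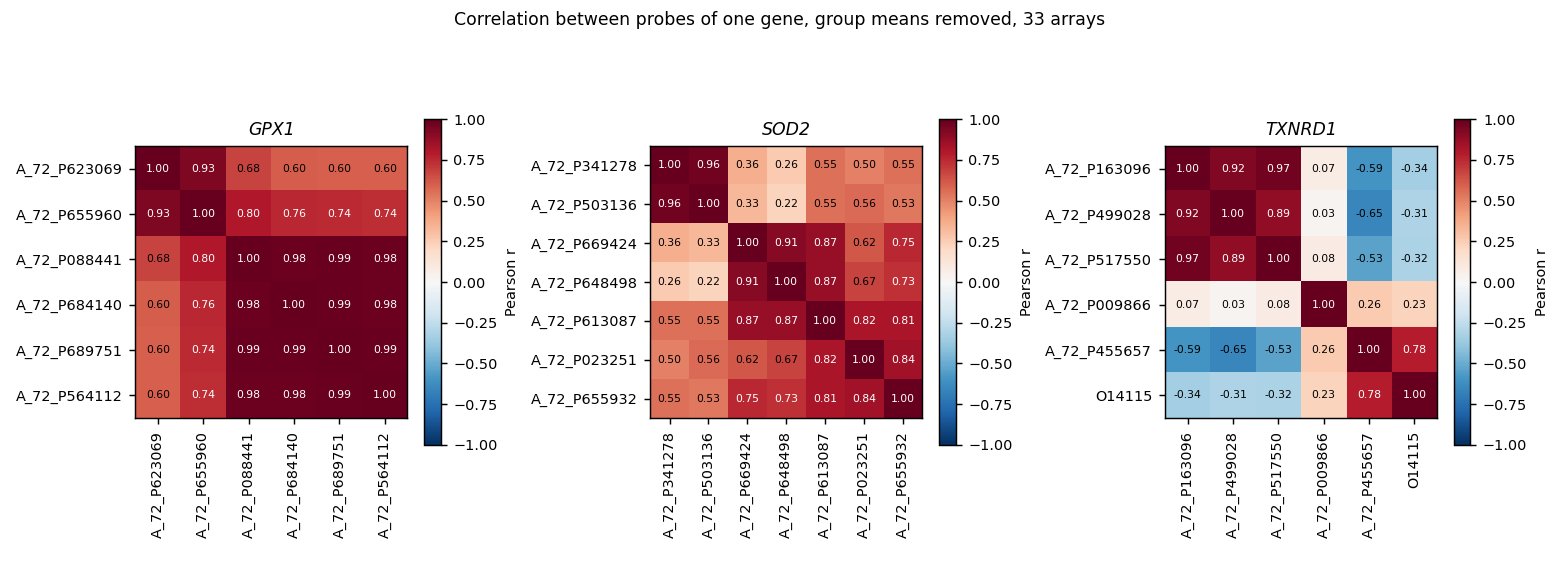
Pearson r between the probes of GPX1, of SOD2 and of TXNRD1 over 33 arrays, with the group means removed, from blue (-1) over white (0) to red (1). GPX1 holds a set of 4 probes with r near 1, SOD2 A_72_P341278 and A_72_P503136 stand apart from the other SOD2 probes, and TXNRD1 A_72_P455657 and O14115 are negative with A_72_P163096, A_72_P499028 and A_72_P517550; SOD2 A_72_P444413 is left out because its values are in separate runs.

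TXNRD1 O14115 was the only member probe called higher in F1. Its lowest, median and highest values were 7.84, 7.97 and 8.40 in F1, 7.58, 7.73 and 8.14 in CR, and 7.58, 7.85 and 8.22 in LW. F1 was higher than CR by 0.26 (SE 0.07, adjusted p = 0.0247) and on 5 of 5 slides. Without F1 HS 2 it was 0.23 higher (adjusted p = 0.0608). Without both F1 HS 2 and F1 HS 5 it was 0.20 (adjusted p = 0.12). HS minus TN of O14115 was 0.21 in LW (5 of 6 HS pigs above the TN mean) and 0.21 in F1 (5 of 5 above), but -0.19 in CR (6 of 6 below). A_72_P455657 gave 0.26, 0.13 and -0.28 in the same order. The F1 values without F1 HS 2 and F1 HS 5 were 0.10 for O14115 and -0.12 for A_72_P455657, so the sign of the latter in F1 rested on those pigs. The interaction p was 0.00393 and 0.0141, and the adjusted p 0.926 for both, so these contrasts between breeds failed the correction over all probes.

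PRDX1 is a thioredoxin-fed peroxidase of the cytosol and a classical NRF2 target. It was the only member for which all probes were called between the purebreds. The sequence of A_72_P412538 is printed to show that its probes are not independent: capitals mark the 45 bases it shares with O9257.
PRDX1 A_72_P412538: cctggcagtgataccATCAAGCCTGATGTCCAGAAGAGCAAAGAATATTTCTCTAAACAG

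The lowest, median and highest values of A_72_P412538 were 12.73, 12.97 and 13.59 in LW, 13.07, 13.53 and 14.29 in CR, and 13.03, 13.25 and 13.46 in F1. The F1 median thus lay between those of the purebreds. LW and CR overlapped, since LW TN 2 was at 13.59 and 3 more LW pigs were above the lowest CR pig, and CR TN 1 was the highest of all at 14.29. LW was lower than CR by 0.54 (SE 0.10, interval -0.74 to -0.34, adjusted p = 0.000543) and on 5 of 5 slides, where the difference ran from -0.62 to -0.23. O9257 gave -0.51 (adjusted p = 0.000412). Without LW TN 2 and CR TN 1, A_72_P412538 was still lower in LW, by 0.53 (adjusted p = 3.41e-05). F1 was lower than CR by 0.36 on O9257 (adjusted p = 0.0151) and by 0.31 on A_72_P412538 (adjusted p = 0.0514, not called). The latter was called with slide as a fixed block (-0.34, adjusted p = 0.0183) or a random block (-0.33, adjusted p = 0.0256). F1 minus LW was 0.23 on A_72_P412538 (adjusted p = 0.275) and 0.15 on O9257 (adjusted p = 0.499). In that comparison A_72_P412538 gave 0.30 and was called without LW TN 2 and CR TN 1, and it was also called with array weights. Fibroblast genes moved the same way: 4 of 6 were called lower in LW than in CR (median -0.59) and 3 of 6 lower in F1 than in CR (median -0.44). Their summed level was 14.04 to 15.14 in LW TN, 13.87 to 14.20 in LW HS, 14.70 to 15.42 in CR TN, 14.25 to 14.92 in CR HS, 14.27 to 14.75 in F1 TN and 14.02 to 14.72 in F1 HS, with PDGFRA well above background on 15 of 33 arrays. Their part in the PRDX1 difference was not tested. Heat gave -0.07 on A_72_P412538 over all breeds (adjusted p = 0.837), and 0.02 with LW TN 2 and CR TN 1 left out.

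HMOX1 is heme oxygenase 1, which is induced by heme and oxidative stress and is abundant in macrophages that clear red cells. Its brightest probe, A_72_P078091, lay between 8.74 and 9.74 in TN pigs (median 9.06) and between 8.58 and 9.33 in HS pigs (median 8.99). HS minus TN was -0.14 (interval -0.30 to 0.03, adjusted p = 0.655), and 13 of 17 HS pigs were below the TN mean of their breed. A_72_P689842 had the smallest p of all member probes in that comparison, at -0.16 (interval -0.28 to -0.04, adjusted p = 0.392). In LW pigs that probe was at 8.52, 8.55, 8.64, 8.77 and 8.44 in TN and at 8.29, 8.14, 8.55, 8.03, 8.53 and 8.13 in HS. All 6 HS pigs were below the TN mean, with a difference of -0.31 (adjusted p = 0.637). In F1 it was -0.22 (5 of 5 pigs below). In CR it was 0.04, with 4 of 6 pigs above the TN mean, and all 4 HMOX1 probes were higher in HS there (0.04 to 0.20), none of them called. The interaction p was 0.043 (adjusted 0.926). The summed level of 9 macrophage genes had a lower mean in HS in each breed, but in CR only with CR TN 1 included. It was 13.14 to 13.79 in LW TN and 12.75 to 13.46 in LW HS, 12.84 to 13.56 in CR TN and 12.77 to 13.29 in CR HS, and 12.92 to 13.27 in F1 TN and 12.84 to 13.06 in F1 HS. All 9 were well above background on every array, and their part in the HMOX1 values was not tested. By breed the A_72_P078091 means were 9.11 in LW, 9.08 in CR and 9.03 in F1, within an SD of 0.17 to 0.30, and no HMOX1 probe was called between breeds.

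Relations between the genes were examined on their brightest probes after removal of the group means, among 316 relations computed. Of 45 pairs 8 passed an adjusted permutation p of 0.05, 7 positive and 1 negative. The adjustment was made over all 316 relations, of which 148 were between probes of a single gene. Many of those had a very small p, which eases the cut-off for pairs between genes, and the 45 were not adjusted alone. The negative pair was GPX1 and GPX3 (r = -0.397, permutation p = 0.022, adjusted 0.043). GPX3 and SOD1 correlated positively (r = 0.618, rho = 0.610, permutation p = 0.00014 and 0.00022, adjusted 0.00038 and 0.00066), with r = 0.586 without the 2 farthest arrays but -0.038 to 0.806 within slides. CAT and PRDX1 gave r = 0.645 (rho = 0.532, adjusted p = 0.00085 and 0.0039), which dropped to 0.317 without the 2 farthest arrays and thus rested largely on them.

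The wider pathway was followed in 91 further genes of glutathione, thioredoxin, selenoprotein and NRF2 function, of which 82 were measured. Heat called 0 of them with limma (13 at an unadjusted p under 0.05, or 15.9%, against 8.77% of all probes), with a median difference of 0.03 against 0.01 over all probes. In the list of NRF2 regulators and targets 17 of 20 were higher in HS, with a median of 0.05, and 45.3% of all probes were below 0. Selenoprotein synthesis had 5 of 5 higher, the thioredoxin and peroxiredoxin list 12 of 18 and the glutathione synthesis and transfer list 11 of 19. Other selenoproteins had 7 of 15 higher, and the remaining glutathione peroxidases and superoxide dismutases 2 of 5. The smallest p belonged to GSTM3, a glutathione transferase, at 0.42 (adjusted p = 0.318, 13 of 17 HS pigs above the TN mean of their breed). Next were SRXN1, sulfiredoxin, which repairs over-oxidised peroxiredoxins, at 0.26 (adjusted p = 0.323, 15 of 17), and GSS, glutathione synthetase, at 0.15 (adjusted p = 0.379, 16 of 17). None of these passed the threshold.

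Between breeds, LW against CR called 4 of the 82 higher and 5 lower (11%, against 6.65% of all probes). MSRB2, a mitochondrial methionine sulfoxide reductase, was 0.72 higher in LW (adjusted p = 1.28e-06), BLVRA, the biliverdin reductase that acts after heme oxygenase, 0.50 higher (adjusted p = 0.00043), and PRDX5, a peroxiredoxin of mitochondria and peroxisomes, 0.21 higher (adjusted p = 0.0135). TXNRD3, a thioredoxin and glutathione reductase, was 0.41 lower in LW (log2 fold change -0.41, adjusted p = 0.000147). DIO2, the selenoenzyme that activates thyroid hormone, gave -0.44 (adjusted p = 0.00386) and PARK7 -0.17 (adjusted p = 0.0216). F1 against LW called 2 (2.44%, against 1.48%), DIO2 (0.43, adjusted p = 0.0224) and TXNRD3 (0.28, adjusted p = 0.0318). F1 against CR called 4 higher and 2 lower (7.32%), near the 6.86% of all probes. MSRB2 (0.60, adjusted p = 7.66e-05), BLVRA (0.56, adjusted p = 0.000348), PRDX5 (0.23, adjusted p = 0.00747) and CCS, the copper chaperone of SOD1 (0.20, adjusted p = 0.0221), were higher in F1. SELENOP, the secreted selenium carrier, was lower by 0.79 (adjusted p = 0.00123) and SELENOF, a selenoprotein of the endoplasmic reticulum, by 0.32 (adjusted p = 0.0171). 

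The genes whose levels ran most like each member over the 33 arrays were sought among 10149 named genes, as a description. GPX4 A_72_P388853 was nearest to NUP133 (r = 0.906), TLK1 (0.906) and DLG3 (0.901). CAT was nearest to MYH7 (0.893), SYNM (0.889) and MDFIC (0.885), and GPX3 to SSR4 (0.831), LHB (0.824) and AP1M2 (0.795). PRDX1 was nearest to EDNRB (0.792), FAM155B (0.768) and MIF4GD (0.763), and SOD1 to KIF1BP (0.789), NAP1L2 (0.788) and GOLGA7 (0.759). SOD2 was nearest to DCTN3 (0.720), DHRS7 (0.694) and VTI1A (0.687), and GPX1 to RABL3 (0.734), TM2D3 (0.731) and TCEAL1 (0.727). TXNRD1 was nearest to BCL7C (0.711), SMG5 (0.668) and PRAF2 (0.665). HMOX1 was nearest to LAPTM5 (0.688), TNIP1 (0.680) and PRDX3 (0.658), and NFE2L2 to DPY19L3 (0.688), INPP4A (0.687) and RIMS1 (0.680).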

How the data were processed

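RNA of 33 pituitary samples was hybridised to 1-colour Agilent porcine arrays, 1 array per pig. The authors read the spots with Agilent Feature Extraction 10.10.1.1, imported the median pixel intensity with limma, quantile-normalised it without background correction and deposited log2 values of 45667 probes, of which 59 lacked a value on some array. Deposited scanner files hold the intensity of each spot and of its background, and marks for spots well above background. The median absolute difference between the table and intensities normalised here was 0.0038.

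The log2 table was tested with limma 3.58.1 in R 4.3.3: breed and temperature as fixed effects, 1 mean per group for contrasts within breeds and the interaction, default eBayes (3.91 prior degrees of freedom), two-sided tests and Benjamini-Hochberg adjustment over 45667 probes, threshold 0.05. Intervals are 95% confidence intervals. The study's random effects of pen, slaughter day and parents are not in the labels and were not fitted. Scripts were tested on simulated data.

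Each gene is described by its brightest probe, and other probes singly where called or opposed. Of the pathway genes, those called (at most 6 per comparison) or the 3 with the smallest p are named. The 3 most similar genes by r are given. The members and lists were chosen with earlier results of these data known. Alternatives were other backgrounds, scalings and filters, slide terms, array weights, the breed of LW HS 3 and leaving out arrays.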

Additional observations from a re-analysis of the deposited data

Results flagged for a closer look

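On 20 probes in 6 groups each, a single pig lay far from the rest of its group in 4 of 120 cases, where the gap to its nearest neighbour is given as a share of the range of the group. Chance gives about 1 in 20. CAT A_72_P632481 was 13.23 on CR TN 1 against 12.42 to 12.64 on the others (0.723). HMOX1 A_72_P078091 was 9.48 on F1 TN 1 against 8.98 to 9.11 (0.738). SOD2 A_72_P023251 was 9.58 on LW TN 1 against 9.21 to 9.30 (0.762). TXNRD1 O14115 was 8.12 on F1 TN 4 against 7.84 to 7.94 (0.636).

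On 5 of 55 member probes (9.09%), and on 1.46% of the 45608 probes with a value on every array, all HS pigs of a breed lay above the TN mean of that breed and all HS pigs of another breed below theirs. The 5 members were GPX3 A_72_P036051, A_72_P440086 and A_72_P671275, lower in F1 and higher in CR, and TXNRD1 A_72_P455657 and O14115, lower in CR and higher in LW and F1 respectively. The GPX3 probes overlap in sequence and the TXNRD1 probes correlate (r = 0.783), so the 5 are not independent. The CR side of the GPX3 probes rested on CR TN 1: without LW TN 2 and CR TN 1, 5 of 6 CR pigs in heat were above the TN mean on each of the 3. The interaction of breed and temperature gave limma adjusted p = 0.926 for each, so no difference between breeds passed the test.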

How the results depend on the processing

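The comparisons of HS with TN, over all breeds and within each, and the interaction called 0 member probes under every alternative, and LW against CR called 3 to 5. F1 against LW, 3 in the report, became 5 with slide as a random block, 11 with array weights and 0 without F1 HS 2 and F1 HS 5, arrays left out after seeing the data. F1 against CR, 9 in the report, became 4 without those 2 arrays. Leaving out each array in turn gave 4 to 5 calls for LW against CR, 2 to 10 for F1 against LW and 7 to 12 for F1 against CR. The F1 against LW count was 10 without F1 HS 3, 9 without F1 TN 1 or F1 HS 4, and 5 without F1 TN 3, F1 TN 6 or LW HS 4. The added calls included all 5 GPX4 probes without F1 HS 3, without F1 TN 1 and with array weights.

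Differences between HS and TN that changed sign were all uncalled. GPX4 A_72_P388853 gave 0.0479 with the processed signal, 0.0262 with array weights, 0.0055 without a breed term and 0.0818 without F1 HS 2 and F1 HS 5. SOD2 A_72_P341278 gave 0.0164 with array weights and 0.0085 without those arrays. Without LW TN 2 and CR TN 1, GPX3 A_72_P666610 gave -0.0372 and PRDX1 A_72_P412538 0.0247. Leaving out single arrays gave -0.0044 to 0.0595 for GPX3 and -0.0663 to 0.0268 for GPX4. The cause was not tested.

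With LW HS 3 taken as Creole, 3 calls were lost (SOD2 A_72_P341278 in LW against CR, SOD2 A_72_P444413 in F1 against LW, TXNRD1 O14115 in F1 against CR). With the processed signal GPX4 A_72_P388853 and PRDX1 O9257 in F1 against CR had adjusted p of 0.0838 and 0.0525. Over all probes HS against TN called 10, and 4 to 92 under the alternatives, F1 against LW 674 (239 to 2568), F1 against CR 3135 (1802 to 4630) and LW against CR 3039 (1827 to 4480). Naming probes through accessions or synonyms added no member. No paired analysis was possible because the labels carry no replicate numbers. With 5 or 6 arrays a group, values within a breed are the least precise.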
